A study of Mus musculus with 9 samples.

Results

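The genes described here are 45 components of the Wnt, Notch, Hedgehog, BMP and EDA signalling pathways, taken by gene symbol from the count table of 48733 rows. They comprise 20 Wnt, 7 Notch, 7 Hedgehog, 9 BMP and 2 EDA pathway genes, and the rule named them by symbol rather than by their values, with earlier results of these data known. RNAseq was performed on submandibular glands (SMGs) of 4 WT and 5 DKO adult male mice, with 1 unstranded library per gland. DKO mice lack both *Hs3st3a1* and *Hs3st3b1*, neighbouring genes for 2 of the enzymes that add the 3-*O*-sulfate of heparan sulfate (HS). The paper reports that other such enzymes, *Hs3st1* among them, are expressed in this gland. It found specific 3-*O*-sulfated structures reduced in DKO glands, and others not. On the DKO chromosome a nuclease-made frameshift in exon 1 of *Hs3st3a1* was combined with a LacZ-marked null allele of *Hs3st3b1*, so that every cell of the animal carried the loss. WT animals were littermates, and the labels give neither ages in weeks nor the founder line of each DKO mouse.

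Wnt, Hedgehog and BMP proteins are secreted signals that bind HS on cell surfaces and in the basement membrane, which shapes how far they spread and how they reach their receptors. Wnts bind Frizzled receptors with LRP co-receptors and stabilize β-catenin, Notch receptors are activated by ligands on the neighbouring cell, Hedgehog relieves the block of Smoothened by Patched, BMPs act through serine-threonine kinase receptors and SMADs, and ectodysplasin acts through its receptor EDAR to activate NF-κB. All of these pathways take part in the branching and patterning of the embryonic salivary gland, and EDA signalling in particular is needed for normal glands. The comparison asks whether the RNA of these components differed between adult WT and DKO glands.

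In the adult male SMG, WT and DKO libraries overlapped on the deposited normalized values for every tested component except *Wnt4*. The *Wnt4* level was lower in DKO, with the nearest libraries within counting error of each other, and edgeR did not call it. Of the 45 genes, 31 had enough counts to be tested, and edgeR (quasi-likelihood F-test, Benjamini-Hochberg (BH) adjustment over all 13842 genes tested) called 0 of the 31 at 0.05. It called 0.629% of all genes, 0.166% higher and 0.462% lower in DKO. DESeq2 (Wald test, BH adjustment) called 1 of the 31, the Wnt ligand *Wnt4*, at 0.691-fold of the WT level, against 4.45% of all genes (1.77% higher and 2.68% lower). An unadjusted p under 0.05 in edgeR was reached by 3 of the 31, *Wnt4* and *Fzd7* with lower values in DKO and *Edar* with higher ones, against 14.5% of all genes (7.6% lower and 6.89% higher). On the deposited values *Wnt4* was also the single member whose WT and DKO libraries did not overlap, against 5.95% of all genes (3.5% lower and 2.45% higher). With the TMM factors of the fit, the *Edar* libraries did not overlap either.

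The 31 log2 fold changes, DKO over WT, ran from -0.82 (*Fzd8*) to 0.60 (*Edar*) with a median of -0.18, where all genes tested had a median of 0.01. Negative values were found for 20 and positive values for 11, where 47.5% of all genes were negative and 52.5% positive. With library totals alone in place of TMM factors the median of all genes moved to -0.28, genes called by edgeR became 21 higher and 336 lower in place of 23 and 64, and 9 of the 11 positive members turned negative, *Edar* and *Bmp7* being the exceptions. For 19 of the 31 (61.3%) the 95% confidence interval lay wholly within a 2-fold change in either direction, as it did for 77.8% of all genes tested. The intervals of the other 12, *Wnt5a*, *Fzd1*, *Fzd8*, *Lgr4*, *Axin2*, *Sfrp1*, *Dll1*, *Hes1*, *Hey1*, *Bmp7*, *Eda* and *Edar*, reached past 2-fold in at least 1 direction, and except for that of *Edar* they also included 0.

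**Figure D1:**
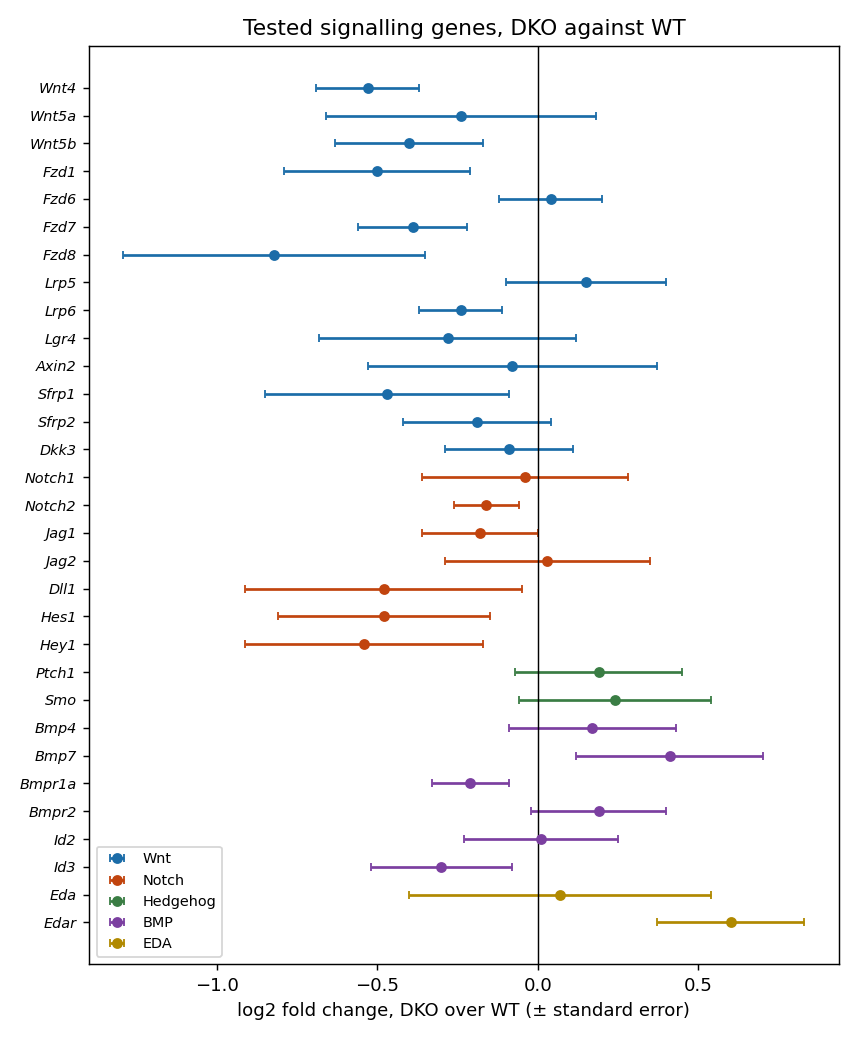
Log2 fold change, DKO over WT, of the 31 tested genes, coloured by pathway, with bars of 1 standard error from edgeR's quasi-likelihood fit. The values lie between -0.82 and 0.60. They are negative for 12 of the 14 Wnt genes and 6 of the 7 Notch genes, against 47.5% of all genes tested.

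Library totals were 20653492 to 37870519 counts in WT and 17053747 to 34683690 in DKO. *Hs3st3a1* had 3 to 14 counts per WT library and 0 in all 5 DKO libraries, and *Hs3st3b1* had 67 to 216 in WT and 7 to 45 in DKO. The 20 most abundant genes took 52.9 to 58.7% of the counts in WT and 59.4 to 70.3% in DKO. Marker genes of several cell types differed as well. All 9 tested myoepithelial markers of 10 were lower in DKO (edgeR called 3, DESeq2 7), and their summed level was 644 to 1030 CPM in WT and 257 to 584 in DKO. Of these 9 markers 6 did not overlap between the groups, whereas *Krt14*, *Krt5* and *Trp63* did, the last with a log2 fold change of -0.12. Of 7 granular duct markers 6 were lower (DESeq2 called 5), with sums of 35500 to 86900 CPM in WT and 5060 to 28100 in DKO, and of 8 general duct markers 5 were lower (DESeq2 called 2), with sums of 409 to 492 and 366 to 421 CPM. The 7 tested acinar markers of 8 were higher (DESeq2 called 4), with sums of 198000 to 295000 and 308000 to 547000 CPM. Taken singly, *Pip*, *Car6* and *Agt* did not overlap between the groups, whereas *Aqp5*, *Mucl2*, *Lpo* and *Bhlha15* did. Each such sum follows its most abundant genes, such as *Mucl2* (113000 to 286000 CPM) here and *Klk1b26* (3380 to 47400 CPM) in granular duct. Fibroblast markers, 7 of 8 lower and none called, summed to 374 to 613 CPM in WT and 163 to 454 in DKO, and endothelial markers, all 6 higher and none called, to 22.5 to 32.6 and 32.1 to 39.0 CPM. The sums overlapped between groups for lymphocyte (64.5 to 157 and 13.0 to 195 CPM), adipocyte (2.37 to 3.56 and 2.54 to 6.28 CPM), skeletal muscle (3.33 to 7.86 and 2.70 to 4.93 CPM) and Schwann and neuron markers (21.2 to 26.6 and 20 to 34.6 CPM). Of the 6 skeletal muscle markers 3 were tested, and *Myh4* was at 0. *Acta1* was lower in every DKO library and called by edgeR and DESeq2. *Ckm* had a positive log2 fold change (0.61) and *Mylpf* a negative one (-0.78). Both overlapped between the groups, and neither was called. Sublingual and parotid markers summed to 25.3 to 82.6 CPM in WT and 58.5 to 138 CPM in DKO apart from DKO replicate 1, which had 8170. That library had 7410 CPM of *Bpifa2*, 636 of *Amy1* and 98.6 of *Dcpp1*. Its levels of *Dcpp2* (0.730), *Prb1* (0.643) and *Muc19* (0.0292) were low. In whole glands, fewer cells of a type and less RNA per cell cannot be told apart, and the part of these shifts in the values below was not tested.

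The promoters of *Wnt4*, the member called by DESeq2, and *Edar*, the member with the largest positive value, are shown because these genes had the largest log2 fold changes relative to their standard errors. They were taken from RefSeq (GRCm38.p6) and are written 5′ to 3′ on the strand of the gene, and no base inside the GENCODE M21 gene is printed. The *Wnt4* stretch is chr4:137277385-137277488 on the plus strand, 104 bases that end at the annotated start of the gene. The *Edar* stretch is chr10:58675697-58675946 on the minus strand, 250 bases, with a match to the TCF/LEF motif in capitals.
Wnt4: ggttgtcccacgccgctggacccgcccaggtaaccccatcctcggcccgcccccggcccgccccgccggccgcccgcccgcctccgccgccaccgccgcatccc
Edar: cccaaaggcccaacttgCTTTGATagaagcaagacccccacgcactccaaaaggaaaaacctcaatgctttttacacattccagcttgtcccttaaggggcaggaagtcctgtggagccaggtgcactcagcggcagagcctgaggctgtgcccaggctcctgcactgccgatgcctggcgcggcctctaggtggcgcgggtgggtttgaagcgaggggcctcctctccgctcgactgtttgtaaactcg

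The *Edar* match begins 233 bases before the RefSeq start. The TCF/LEF letters searched were CTTTGAT on both strands, and 3.21% of the 32851 promoter windows of 250 bases in the RefSeq table hold them. Of the 45 genes, 27 had a promoter in this table, with 31 windows in all, and 3 of these windows (1 each of *Wnt5b*, *Wnt11* and *Edar*) held the letters. The *Wnt4* window held none. For RBPJ, the DNA-binding partner of Notch, the letters GTGGGAA were found in 2 of the 31 windows (*Bmpr2* and *Eda*) and 5.42% of all promoters. The GC-rich SMAD letters GGCGCC were found in 9 of the 31 and in 9.59% of all promoters, and the GLI letters GACCACCCA in 0 of the 31 and 0.225%. The NF-κB consensus (GGG, any 5 bases, CC) occurred in 21 of the 31, *Edar* and *Wnt4* among them, and in 45.8% of all promoters. All motifs were searched on both strands, and matches to NF-κB and SMAD letters can overlap. The SMAD matches of *Wnt4* lie inside the GENCODE gene and are not printed. A match of letters is a description of the sequence and not a binding site.

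Levels were compared between genes as normalized CPM (counts scaled to library size with TMM factors, as deposited) per kb of annotated exon. In WT *Lgr4* (17.7 CPM per kb), a receptor for R-spondins that strengthens Wnt signalling, and *Id2* (17.4), a BMP-responsive inhibitor of basic helix-loop-helix factors, were highest. They were followed by *Wnt4* (10.6 CPM per kb), *Notch2* (7.17), the Notch ligand *Jag1* (5.79), *Id3* (4.67), the type I BMP receptor *Bmpr1a* (2.86) and the secreted Dickkopf family protein *Dkk3* (1.18). These 8 were the members above 1 CPM per kb in WT, and the other 23 tested members lay between 0.0817 (*Axin2*) and 0.944 (*Fzd6*).

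**Figure D2:**
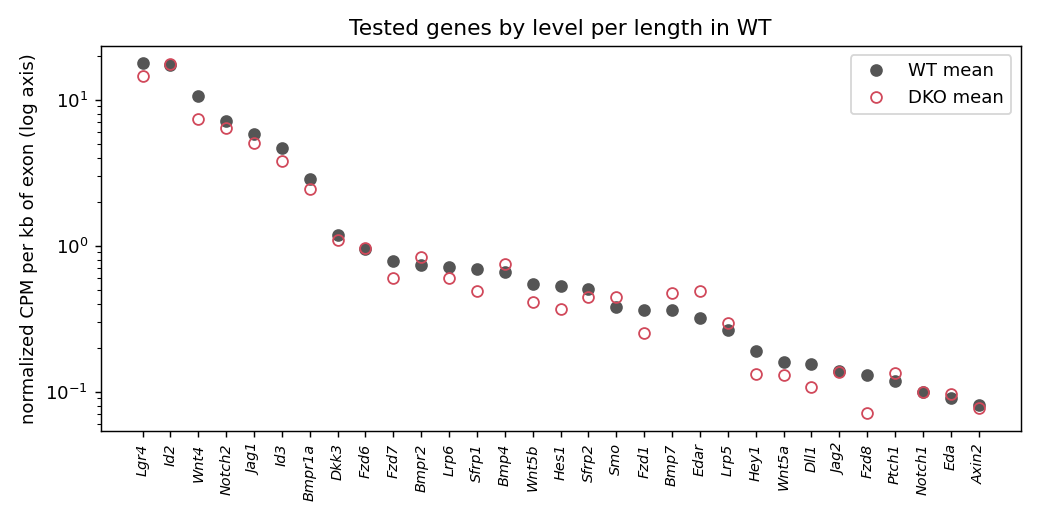
Mean normalized CPM per kb of exon (log axis) of the 31 tested genes in WT (filled, n = 4) and DKO (open, n = 5), ordered by the WT level. *Lgr4*, *Id2* and *Wnt4* lie at 10.6 CPM per kb or more in WT and *Axin2* lies lowest at 0.0817.

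The remaining 14 genes did not pass the filter on low counts in these adult glands. *Shh*, the Hedgehog ligand of many epithelia, and *Grem1*, a secreted BMP antagonist, had 0 counts in all 9 libraries. A count of 0 allows up to 3 counts, or 0.0665 to 0.217 CPM by library. *Ihh*, the other Hedgehog ligand listed, had 1 count in WT replicate 4, 2 in DKO replicate 1 and 0 elsewhere. The Hedgehog transcription factors *Gli1*, *Gli2* and *Gli3* had 31, 28 and 42 counts over all 9 libraries. *Lgr5*, the stem cell marker related to *Lgr4*, had 11 counts in all. Low totals were also found for the Wnt ligands *Wnt7b* (8), *Wnt11* (8), *Wnt2b* (19) and *Wnt10a* (61), for the receptor *Fzd2* (52), for *Bmp2* (20) and for the BMP target *Id1* (86). In none of these 14 did the count of a library exceed 24.

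Of the 3 tested Wnt ligands among the 45 genes, *Wnt4* (ENSMUSG00000036856, GRCm38 chromosome 4, 137277489 to 137299726, plus strand), a Wnt with roles in epithelial development in kidney and mammary gland, was by far the most abundant (10.6 CPM per kb in WT, against 0.548 for *Wnt5b* and 0.160 for *Wnt5a*). It measured 44.8, 43.4, 46.2 and 43.3 CPM in WT and 23.9, 24.7, 30.5, 31.6 and 43.0 CPM in DKO. The 4 WT libraries were close together, and 4 of the 5 DKO libraries were well below them, while DKO replicate 5 lay next to the lowest WT library. These nearest libraries had 1008 counts (43.3 CPM, 95% exact Poisson interval 40.6 to 46.0) and 596 counts (43.0 CPM, 39.6 to 46.6), so the gap between the groups was smaller than the counting error. The WT mean was 44.4 ± 1.37 CPM (SD, n = 4) and the DKO mean 30.8 ± 7.66 CPM (SD, n = 5), a log2 fold change of -0.53 (95% interval -0.87 to -0.19, BH-adjusted p = 0.129 in edgeR).

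DESeq2 put the BH-adjusted p of *Wnt4* at 0.0485, just under the threshold, within a range of 0.000116 to 0.343 over all alternative settings. With 1 library left out, DESeq2 called *Wnt4* only without DKO replicate 5 (adjusted p = 0.000116), and without any other single library its adjusted p lay above 0.05. The log2 fold change stayed negative with each library left out, between -0.68 without DKO replicate 5 and -0.45 without DKO replicate 1. The sums of the myoepithelial and granular duct markers were lower in every DKO library than in every WT library too, and their part in the *Wnt4* values was not tested.

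*Wnt5a* and *Wnt5b*, ligands of β-catenin-independent signalling, were expressed at low levels. *Wnt5b* measured 1.16 to 1.97 CPM in WT and 0.939 to 1.23 in DKO, which gave -0.40 as the log2 fold change (standard error 0.23). *Wnt5a* measured 0.510 to 1.88 CPM in WT and 0.505 to 1.81 in DKO, a log2 fold change of -0.24 (standard error 0.42) that turned to 0.02 without WT replicate 1. The groups overlapped for both genes.

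Among the Frizzled receptors of the 45 genes *Fzd6* had the most counts. It measured 4.51, 5.26, 4.01 and 4.42 CPM in WT and 5.84, 4.93, 3.95, 4.27 and 4.19 CPM in DKO, so the groups overlapped almost entirely (log2 fold change 0.04, 95% interval -0.31 to 0.38). *Fzd7*, a receptor found in many epithelial progenitors, measured 3.08, 3.51, 3.77 and 3.86 CPM in WT and 2.95, 2.01, 2.53, 3.20 and 2.89 CPM in DKO. DKO replicate 4 lay above the lowest WT library and the other 4 DKO libraries lay below it. This gave a log2 fold change of -0.39 (95% interval -0.77 to -0.01, BH-adjusted p = 0.335 in edgeR). *Fzd1* was at 1.5 to 1.56 CPM in all 4 WT libraries and between 0.578 and 1.54 CPM in DKO, and its log2 fold change was -0.50 (95% interval -1.13 to 0.13). *Fzd8* had the most negative value of all members, -0.82 (standard error 0.47), at 0.357 to 1.16 CPM in WT and 0.217 to 0.869 in DKO.

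The co-receptors differed little. *Lrp6* measured 8.57 to 11.6 CPM in WT and 7.12 to 9.36 in DKO (log2 fold change -0.24, 95% interval -0.52 to 0.05), and *Lrp5* 1.38 to 3.43 CPM in WT and 2.34 to 3.35 in DKO (0.15, -0.39 to 0.69). The sign of *Lrp5* turned when WT replicate 1 was left out, to -0.05.

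*Lgr4* (ENSMUSG00000050199, GRCm38 chromosome 2, 109917647 to 110014257, plus strand) had the widest spread of levels in DKO. The WT libraries had 141, 122, 73.5 and 79.5 CPM and the DKO libraries 63.7, 63.9, 47.5, 198 and 53.4 CPM. DKO replicate 4 was the highest of all 9 libraries, and the other 4 DKO libraries were below every WT library. With all libraries *Lgr4* had a log2 fold change of -0.28 (95% interval -1.15 to 0.58, BH-adjusted p = 0.812 in edgeR). Without DKO replicate 4 it was -0.86, with BH-adjusted p-values of 0.0522 in edgeR and 0.00333 in DESeq2, within a range of 0.00333 to 0.991 over all alternatives. That library stood out by its own *Lgr4* level, so p-values without it are no test of *Lgr4*. Leaving it out also raised the genes called in all, from 87 to 441 in edgeR and from 616 to 887 in DESeq2. DKO replicate 4 also had the highest sums of myoepithelial (584 CPM) and granular duct markers (28100 CPM) among the DKO libraries, both below the WT ranges, and their part in its *Lgr4* level was not tested.

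**Figure D3:**
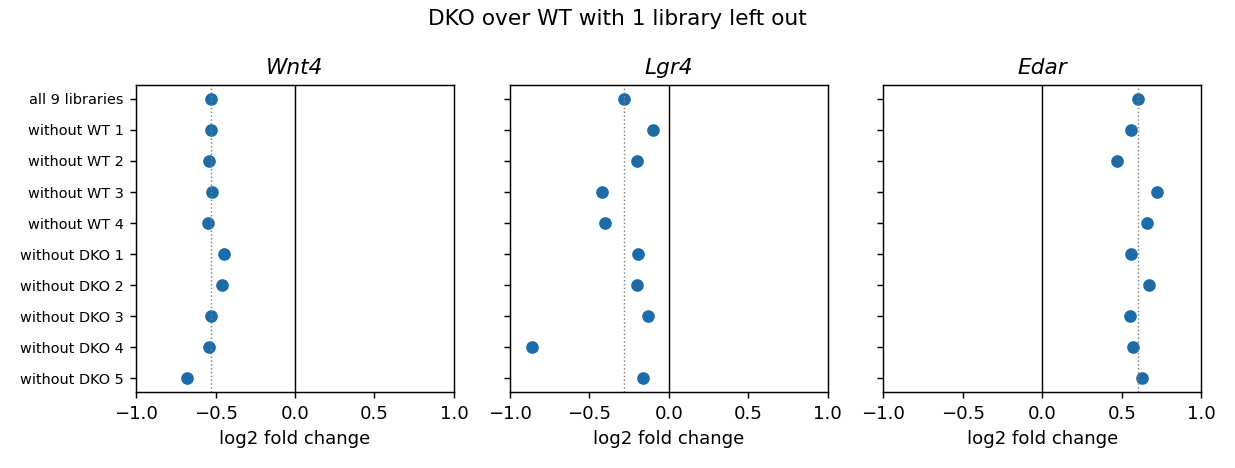
Log2 fold change, DKO over WT, of *Wnt4*, *Lgr4* and *Edar* from edgeR with all 9 libraries (top, dotted line) and with each library left out in turn. *Wnt4* stays between -0.68 and -0.45 and *Edar* between 0.47 and 0.72, whereas *Lgr4* goes from -0.28 to -0.86 when DKO replicate 4 is left out.

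*Axin2*, a feedback inhibitor and common readout of β-catenin signalling, was scarce, with 103 counts over the 9 libraries. It measured 0.491, 0.457, 0.465 and 0.386 CPM in WT and 0.263, 0.616, 0.0919, 0.672 and 0.505 CPM in DKO. The DKO libraries spread on both sides of the WT range, and the log2 fold change of -0.08 (95% interval -1.07 to 0.91) turned to 0.08 without DKO replicate 1 and to 0.17 without DKO replicate 3. The secreted Wnt antagonists *Sfrp1* and *Sfrp2* had log2 fold changes of -0.47 and -0.19 (standard errors 0.38 and 0.23), at 2.02 to 4.42 and 0.902 to 1.30 CPM in WT and 0.873 to 4.03 and 0.827 to 1.16 CPM in DKO. An antisense transcript overlaps 16.1% of the *Sfrp2* exon bases. *Dkk3* measured 2.92 to 5.32 CPM in WT and 3.12 to 4.09 in DKO (log2 fold change -0.09, standard error 0.20). All 3 overlapped between the groups, and so did the summed fibroblast markers, of which 7 of 8 had lower values in DKO.

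Of the Notch genes all 7 were tested, and none had an unadjusted p under 0.05. *Notch2* was the more abundant of the listed receptors, at 67.9, 84.5, 77.4 and 79.4 CPM in WT and 70.7, 77.2, 63.1, 71.8 and 61.9 CPM in DKO. All 5 DKO libraries lay below 3 of the 4 WT libraries, with a narrow 95% interval of -0.39 to 0.07 for the log2 fold change of -0.16. Another transcript on the same strand overlaps 5.02% of the *Notch2* exon bases. *Notch1* was much lower, at 1.03 to 1.97 CPM in WT and 0.701 to 2.17 CPM in DKO (log2 fold change -0.04, standard error 0.32), and 2 antisense transcripts overlap 7.50% and 2.91% of its exon bases, which an unstranded library cannot separate. The ligand *Jag1* measured 39.2, 37.8, 27.6 and 30.4 CPM in WT and 31.7, 34.5, 28.7, 34.4 and 18.8 CPM in DKO. It differed by less than the spread between libraries (log2 fold change -0.18, standard error 0.18).

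The other Notch ligands were at 1.38 CPM or lower in every library. *Jag2* had a log2 fold change of 0.03 (95% interval -0.67 to 0.72), and *Dll1* of -0.48 (-1.41 to 0.46), with 20.5% of the *Dll1* exon bases shared with an antisense transcript. *Hes1*, the classical transcriptional target of Notch, measured 0.938, 1.30, 0.510 and 1.55 CPM in WT and 0.964, 0.657, 0.643, 0.751 and 0.722 CPM in DKO. Of the WT libraries 2 were above all DKO libraries and 1 was below them all, and the log2 fold change of -0.48 had a 95% interval of -1.21 to 0.24 (BH-adjusted p = 0.573 in edgeR). *Hey1*, another target, measured 0.313 to 0.902 CPM in WT and 0.292 to 0.632 in DKO (log2 fold change -0.54, standard error 0.37). The 2 targets thus had the most negative values of the Notch members, beside *Dll1*, and both had intervals that included 0.

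Hedgehog ligands were at or near 0 counts, GLI factors had 0 to 12 counts per library, and *Ptch1* and *Smo* were the tested members. *Ptch1*, the receptor and itself a Hedgehog target, measured 1.61, 1.64, 2.02 and 1.42 CPM in WT and 1.99, 2.87, 1.56, 1.90 and 1.16 CPM in DKO. The DKO libraries surrounded the WT range (log2 fold change 0.19, 95% interval -0.37 to 0.75). *Smo*, the transducer that Patched holds inactive, measured 1.6 to 2.90 CPM in WT and 1.19 to 3.65 CPM in DKO, a log2 fold change of 0.24 (-0.41 to 0.90).

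The BMP ligands *Bmp4* and *Bmp7* had 392 and 393 counts in all. *Bmp7* measured 0.893, 1.26, 1.37 and 2.28 CPM in WT and 1.31, 2.59, 2.11, 1.86 and 1.73 CPM in DKO. The 4 highest DKO libraries were above 3 of the 4 WT libraries, and the log2 fold change of 0.41 had an interval that included 0 (-0.23 to 1.04). *Bmp4* measured 1.03 to 2.04 CPM in WT and 1.26 to 2.21 in DKO (0.17, -0.39 to 0.74). The type I receptor *Bmpr1a* measured 18.6, 20.1, 14.4 and 19.4 CPM in WT and 16.4, 16.0, 15, 17.3 and 13.6 CPM in DKO, with 3 of the 4 WT libraries above all DKO libraries (log2 fold change -0.21, 95% interval -0.48 to 0.06). The type II receptor *Bmpr2* measured 8.29 to 17.9 CPM in WT and 12.1 to 17.9 in DKO (0.19, -0.27 to 0.64).

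*Id2* was the most abundant of the listed inhibitor of differentiation genes. It measured 39.4, 40.5, 44 and 45.8 CPM in WT and 30.8, 23.2, 62.6, 43.7 and 53.5 CPM in DKO. The DKO libraries scattered on both sides of a tight WT group, with SDs of 16.1 (n = 5) and 2.99 CPM (n = 4), and the log2 fold change was 0.01 (standard error 0.24). *Id3* measured 5.03 to 11.8 CPM in WT and 5.75 to 8.36 in DKO (log2 fold change -0.30, standard error 0.22).

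Of the EDA pair, the ligand *Eda* measured 1.16, 0.724, 0.310 and 0.301 CPM in WT and 0.350, 0.739, 0.460, 0.672 and 1.08 CPM in DKO, so that the groups overlapped (log2 fold change 0.07, 95% interval -0.96 to 1.10). *Edar* (ENSMUSG00000003227, GRCm38 chromosome 10, 58600789 to 58675654, minus strand), its receptor in epithelia, measured 1.07, 0.838, 1.44 and 1.33 CPM in WT and 1.93, 1.44, 2.02, 1.90 and 1.59 CPM in DKO. DKO replicate 2 (35 counts) and WT replicate 3 (65 counts) had almost the same level, 1.437 and 1.440 CPM, and the other 4 DKO libraries were above every WT library. The WT mean was 1.17 ± 0.270 CPM (SD, n = 4) and the DKO mean 1.77 ± 0.249 CPM (SD, n = 5), a log2 fold change of 0.60 (95% interval 0.10 to 1.09, BH-adjusted p = 0.247 in edgeR). Over the alternative settings its BH-adjusted p ranged from 0.222 to 0.533. With the TMM factors of the fit in place of the deposited values, the order of the 2 nearest libraries turned and the groups no longer touched. The summed acinar markers were higher in every DKO library than in every WT library, and their part in the *Edar* values was not tested.

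**Figure D4:**
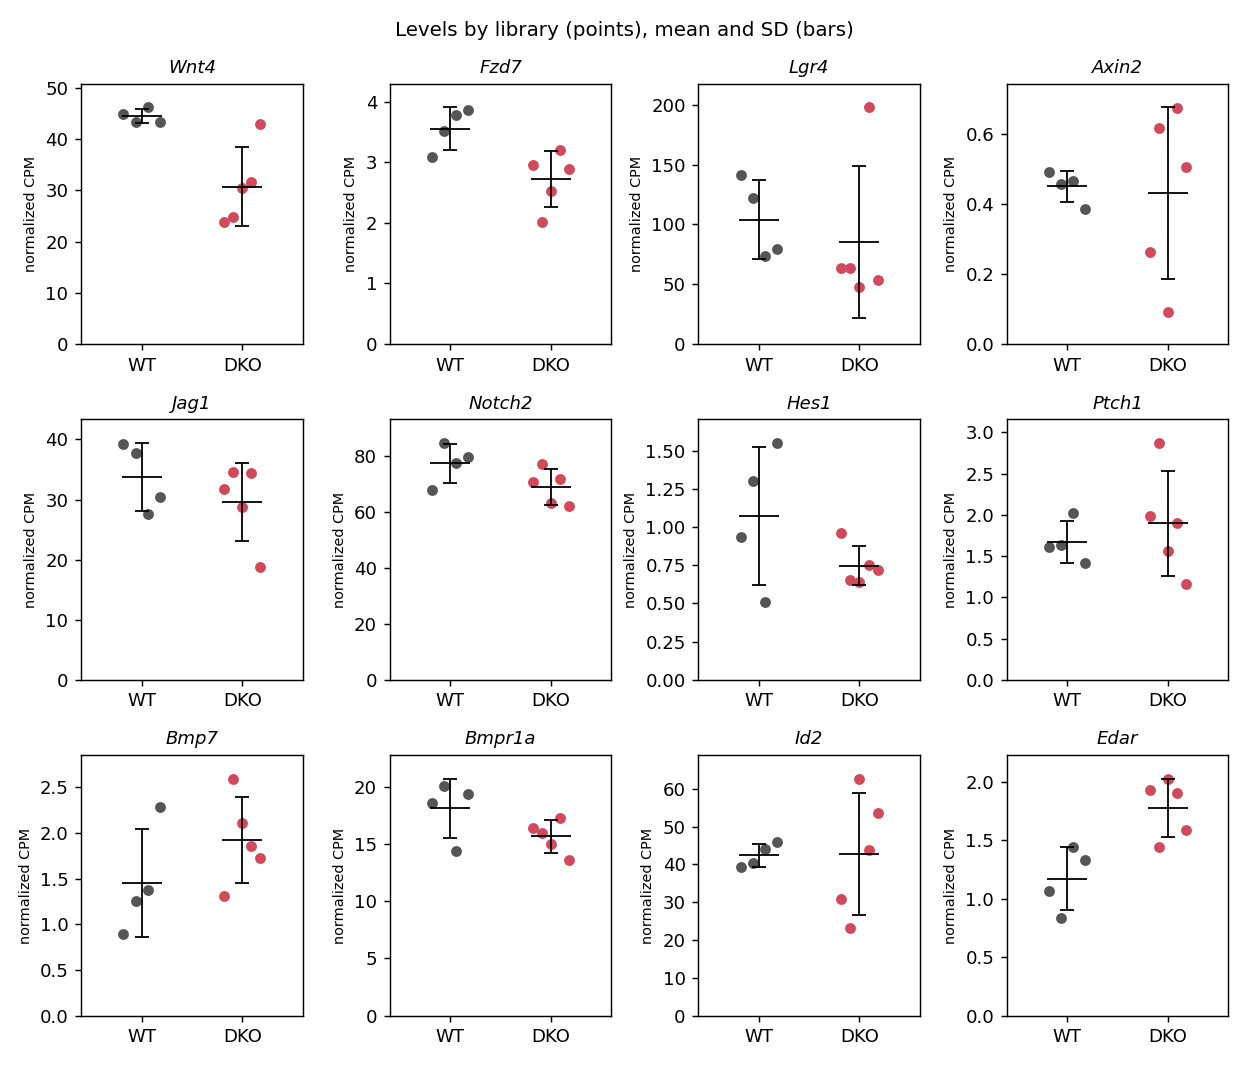
Normalized CPM of 12 members in each WT (grey, n = 4) and DKO (red, n = 5) library, with the mean and SD in black and each axis starting at 0. *Wnt4* libraries do not overlap between the groups, *Edar* libraries meet at 1.44 CPM, and DKO replicate 4 stands at 198 CPM for *Lgr4*.

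The other genes of the 5 pathways were read from a list of 151, of which 97 passed the filter. Their log2 fold changes had a median of 0.02, with 51 positive, 45 negative and 1 that rounded to 0. Among the other Wnt genes 17 were positive and 16 negative, and among the other Notch genes 13 and 12. The larger share of negative values in the Wnt and Notch members was thus not found in the other genes of these 2 pathways. At 0.05 edgeR called 0 of the 97 (12 had an unadjusted p under 0.05, 8 higher and 4 lower), against 0.629% of all genes called and 14.5% at an unadjusted p under 0.05 (6.89% higher and 7.6% lower), and DESeq2 called 3, 1 higher and 2 lower. By pathway, DESeq2 called 2 of the 33 tested Wnt genes, 0 of 26 Notch genes, 1 of 9 Hedgehog genes, 0 of 21 BMP genes and 0 of 8 EDA genes, against 4.45% of all genes. The groups were without overlap in 8 of the 97 (5 higher and 3 lower in DKO), against 5.95% of all genes.

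The largest of these values was that of *Cdon* (ENSMUSG00000038119), a cell-surface co-receptor that binds Hedgehog. It measured 0.849, 0.648, 0.687 and 0.558 CPM in WT and 3.36, 1.97, 2.76, 0.988 and 1.80 CPM in DKO. Every DKO library was above every WT library, although the nearest 2 had 19 and 25 counts, with overlapping exact Poisson intervals (0.511 to 1.33 and 0.639 to 1.46 CPM). *Cdon* had a log2 fold change of 1.67 (95% interval 0.93 to 2.42), with BH-adjusted p-values of 0.0506 in edgeR and 0.000718 in DESeq2, within 1.98e-06 to 0.198 over all alternatives. DESeq2 called it with any single library left out, and edgeR did so without DKO replicate 4 (BH-adjusted p = 0.0154).

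Among the other pathway genes, the Wnt genes called by DESeq2 were *Nkd1* and *Wif1*. *Nkd1* (ENSMUSG00000031661), an intracellular inhibitor that binds Dishevelled and is induced by Wnt, measured 2.5, 1.45, 1.44 and 1.07 CPM in WT and 0.409, 0.944, 0.735, 0.435 and 0.578 CPM in DKO. *Nkd1* had a log2 fold change of -1.38 (95% interval -2.11 to -0.65), with BH-adjusted p-values of 0.0722 in edgeR and 0.0096 in DESeq2, within 0.00673 to 0.272 over all alternatives. *Wif1* (ENSMUSG00000020218), a secreted protein that binds Wnts, measured 2.55, 2.17, 1.84 and 1.63 CPM in WT and 0.876, 0.862, 0.368, 1.42 and 0.505 CPM in DKO. For *Wif1* the log2 fold change was -1.30 (95% interval -2.03 to -0.57), with BH-adjusted p-values of 0.0862 in edgeR and 0.00895 in DESeq2, within 0.000375 to 0.298, and edgeR called it without DKO replicate 4 (0.0264). In both genes each DKO library was below each WT library, with the nearest libraries (23 and 25 counts for *Nkd1*, 36 and 38 for *Wif1*) within counting error of each other. Without WT replicate 1, DESeq2 no longer called *Nkd1* (BH-adjusted p = 0.133) or *Wif1* (0.103).

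**Figure D5:**
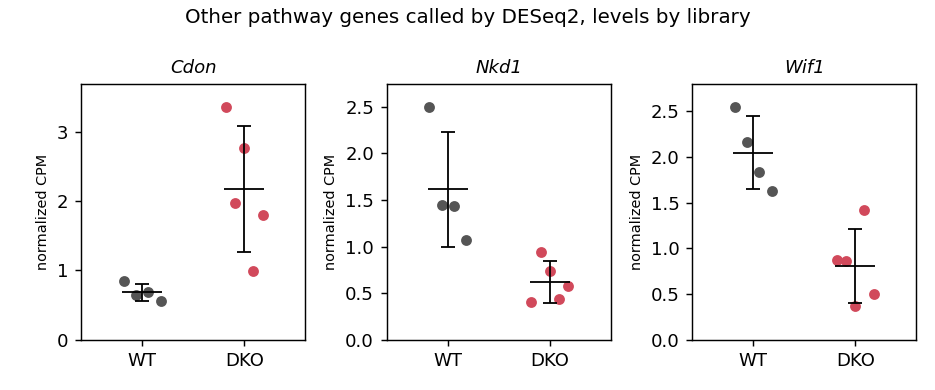
Normalized CPM of the 3 other pathway genes called by DESeq2 in each WT (grey, n = 4) and DKO (red, n = 5) library, with the mean and SD in black and each axis starting at 0. *Cdon* is higher and *Nkd1* and *Wif1* are lower in every DKO library than in any WT library.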

How the data were processed

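The authors deposited raw read counts per gene (48733 rows), the same counts after a filter (17562 rows), and a signal table of normalized values, the filtered counts divided by 1 TMM-based factor per library, written here as CPM. All 158058 of its values gave back whole counts within 0.001. The submitters' processing notes name STAR 2.5.2a, DESeq2, edgeR and limma and the builds GRCm38, mm10 and GRCh38. The counting tool and annotation are not given in the sources used here.

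Unfiltered counts were fitted in edgeR 4.0.16 (R 4.3.3) with TMM factors, filterByExpr (minimum count 10, minimum total 15, leaving 13842 genes) and the quasi-likelihood test with genotype as the single term, with Benjamini-Hochberg adjustment and a threshold of 0.05. DESeq2 1.42.0 and limma 3.58.1 were alternatives. The paper names DESeq2's Wald test, and edgeR was taken as the main test for raw counts. Standard errors are the log2 fold change over the square root of F, and 95% intervals use the t quantile of the fit. Poisson intervals and floors of 3 counts cover counting error only. The scripts were tested on simulated data. Each library is 1 mouse.

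Levels are the deposited values. For genes outside that table, and for the marker sums, counts were scaled with the TMM factors of the fit. Exon lengths came from GENCODE M21 and promoters from RefSeq GRCm38.p6. The members and lists were chosen with earlier results of these data known. Every member is accounted for. Those past a threshold by edgeR or DESeq2, with an unadjusted p under 0.05 or without overlap, and the ligand, receptor and target of each pathway with the most counts, are given by library, as are the other pathway genes called by either tool. *Lgr4* was chosen after its values were seen. Unstranded counts cannot separate antisense transcripts. 1 gene of the wider pathway lists is not reported here.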

Additional observations from a re-analysis of the deposited data

Results flagged for a closer look

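Of 68 groups of libraries examined (31 tested members and 3 other pathway genes, in WT and in DKO), 1 held a library far from the others by Dixon's criterion, where chance alone gives about 1 in 20. It was *Lgr4* in DKO, where DKO replicate 4 had 198 CPM and the other 4 libraries 47.5 to 63.9 CPM, a gap of 0.891 of the range of the group.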

How the results depend on the processing

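edgeR called 87 genes in all and 0 of the 31 members. Upper-quartile factors gave 5 genes in all, library totals alone 357, DESeq2 616, limma-voom with quality weights 148, no filter on low counts 347, the counts as filtered by the authors 13, limma-trend on log2(value + 1) 6, leaving out the 20 most abundant genes 5, and leaving out 1 library 0 to 441, with 306 without WT replicate 2 and 441 without DKO replicate 4. The cause was not tested. RLE size factors (87) and a pseudocount of 0.25 (100) stayed within 1.5 times. DESeq2 without WT replicates 1 to 4 in turn called 266, 815, 303 and 475, and without DKO replicates 1 to 5 in turn 586, 468, 511, 887 and 512, settings chosen after seeing the data.

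Among the members library totals alone called 1 (*Wnt4*), DESeq2 1 (*Wnt4*), DESeq2 without DKO replicate 4 1 (*Lgr4*) and DESeq2 without DKO replicate 5 1 (*Wnt4*). All other settings called 0. Among the 97 other pathway genes, 0 in edgeR, library totals alone called 1 (*Nkd1*), DESeq2 3, no filter 1 (*Cdon*), leaving out 1 library 0 to 2, and DESeq2 without WT replicates 1 to 4 in turn 1, 4, 3 and 3 and without DKO replicates 1 to 5 in turn 3, 4, 3, 3 and 3.

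Of 758 values of single genes under the alternatives 680 kept their direction and their side of the threshold, 36 passed it and 42, in 13 genes, turned sign. With library totals alone the log2 fold changes became -0.25 (*Fzd6*), -0.14 (*Lrp5*), -0.26 (*Jag2*), -0.09 (*Ptch1*), -0.03 (*Smo*), -0.15 (*Bmp4*), -0.09 (*Bmpr2*), -0.32 (*Id2*) and -0.21 (*Eda*). With limma-voom they were 0.02 (*Dkk3*), -0.05 (*Jag2*) and -0.22 (*Id2*), with no filter -0.0017 (*Id2*), and with limma-trend -0.02 and -0.07 (*Jag2*) and -0.07 and -0.08 (*Id2*) at pseudocounts of 1 and 0.25. With 1 library left out they ranged over -0.54 to 0.02 (*Wnt5a*), -0.07 to 0.12 (*Fzd6*), -0.05 to 0.32 (*Lrp5*), -0.32 to 0.17 (*Axin2*), -0.21 to 0.08 (*Dkk3*), -0.22 to 0.15 (*Notch1*), -0.12 to 0.20 (*Jag2*), -0.0025 to 0.31 (*Ptch1*), -0.17 to 0.17 (*Id2*) and -0.18 to 0.54 (*Eda*).

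The labels do not say whether the replicate numbers 1 to 4 pair the mice. The deviations of same-numbered libraries correlated at 0.15, 0.30, 0.07 and 0.01. Those of the other WT and DKO combinations correlated at -0.22 to 0.10. Whether same-numbered mice shared a litter or a batch was not tested. With the replicate number as a block, edgeR called 0 genes in all (2024 at an unadjusted p under 0.05) and 0 members, and without the block on replicates 1 to 4 it also called 0 (1762 at an unadjusted p under 0.05). *Eda* became -0.06 and *Id2* -0.17 with the block, and -0.14 and -0.08 without it. Low counts limit *Axin2*, *Hey1*, *Dll1*, *Fzd8* and *Eda*, each with 138 counts or fewer over all libraries, and the 14 genes below the filter.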

Other observations

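The libraries did not share the extremes of the 31 tested members evenly. The same counts were not made over all genes tested, so whether this is particular to the members was not tested. DKO replicate 5 had the lowest level of the 9 libraries for 10 members and DKO replicate 3 for 7, whereas DKO replicate 4 had it for 0 and WT replicate 1 for 2. The highest level fell in WT replicate 1 for 8 members and in WT replicate 4 for 6. DKO replicate 5 also had the lowest summed fibroblast markers (163 CPM) and DKO replicate 3 the lowest summed granular duct markers (5060 CPM). DKO replicates 3 and 5 had the smallest TMM factors (0.774 and 0.809). They also had the largest shares of counts in the 20 most abundant genes (70.3 and 69%). DKO replicate 5 had the smallest library total (17053747). The part of the markers, the factors, the shares and the totals in these counts of extremes was not tested.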
